A study of Mus musculus with 6 samples.

Results

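The genes described here encode the 4 KChIP proteins (Kcnip1 to Kcnip4), the 3 Kv4 channel alpha subunits (Kcnd1, Kcnd2 and Kcnd3) and the 3 Kv-beta subunits (Kcnab1, Kcnab2 and Kcnab3), in adult mouse testis. They were read as every probe set that the platform annotation gives to 1 of these 10 genes alone, which makes 29 of the 45037 probe sets tested and 10 of the 18193 genes named by them. The family was chosen from earlier results of the same transgenic against wild-type comparison, in which Kcnab1 and Kcnip4 each had a probe set past the threshold. The differences of all its members, and the count of those past the threshold, are therefore given as a description and not as a test.

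Total RNA of freshly dissected testis was hybridised to Affymetrix mouse whole-genome arrays, 1 array each for 3 transgenic and 3 wild-type samples, which the submitters call independent biological replicates. The transgenic mice carried a constitutively active mutant of DREAM, the protein encoded by Kcnip3, and the wild-type mice did not. Both groups had a C57BL/6 x CBA hybrid background. The promoter of the transgene, the mice's exact age and the number of mice behind each sample are not given in the sources used here. All values are log2 intensities after robust multi-array averaging (RMA), so a difference of 1 is a doubling of the signal. With no detection call, a dim probe set leaves it unknown whether its transcript was present, and levels are compared between samples for 1 probe set and never between probe sets.

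KChIP proteins are cytosolic calcium sensors with EF-hand domains that bind the N-terminal end of Kv4 channel subunits. They raise the number of Kv4 channels at the cell surface and change how quickly these channels inactivate. Kv4 alpha subunits form the pore of fast, transient potassium currents in neurons and heart. Kv-beta subunits are cytosolic proteins related to aldo-keto reductases that attach mainly to Kv1 channels. Kcnip3 has a second role: its product, also called KChIP3 or calsenilin, enters the nucleus as DREAM, binds DNA at elements with a GTCA core and represses transcription when free of calcium.

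The sequences before the transcription starts of the 3 genes whose values differed most between the groups (Kcnip4, Kcnip2 and Kcnab1) are shown first. Whether DREAM binds or controls any of these genes was not tested. They are the 250 bases before each start listed by RefSeq on GRCm38.p6, 5′ to 3′ on the strand of the gene, with GTCA or its reverse complement TGAC in capitals.

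Kcnip4, first start, chr5:49285660-49285909, minus strand: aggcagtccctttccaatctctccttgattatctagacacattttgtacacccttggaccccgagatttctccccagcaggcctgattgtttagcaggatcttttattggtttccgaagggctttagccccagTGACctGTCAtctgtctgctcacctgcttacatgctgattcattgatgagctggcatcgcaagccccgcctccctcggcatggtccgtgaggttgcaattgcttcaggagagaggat
Kcnip4, second start, chr5:48599683-48599932, minus strand: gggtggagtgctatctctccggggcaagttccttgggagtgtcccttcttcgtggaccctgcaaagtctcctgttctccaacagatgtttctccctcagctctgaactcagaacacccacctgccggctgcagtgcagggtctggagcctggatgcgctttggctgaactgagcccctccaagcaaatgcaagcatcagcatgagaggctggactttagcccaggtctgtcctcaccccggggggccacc
Kcnip2, chr19:45816064-45816313, minus strand: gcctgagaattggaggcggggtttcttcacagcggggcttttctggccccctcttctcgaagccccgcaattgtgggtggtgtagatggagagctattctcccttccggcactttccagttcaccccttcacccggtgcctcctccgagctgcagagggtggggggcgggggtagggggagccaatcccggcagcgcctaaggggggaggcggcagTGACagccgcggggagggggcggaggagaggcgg
Kcnab1, first start, chr3:64948962-64949211, plus strand: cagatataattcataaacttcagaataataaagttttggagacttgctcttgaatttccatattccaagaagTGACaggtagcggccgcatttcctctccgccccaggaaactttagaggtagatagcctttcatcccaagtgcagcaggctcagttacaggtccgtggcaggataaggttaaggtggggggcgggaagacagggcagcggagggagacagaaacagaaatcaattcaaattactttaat
Kcnab1, second start, chr3:65108764-65109013, plus strand: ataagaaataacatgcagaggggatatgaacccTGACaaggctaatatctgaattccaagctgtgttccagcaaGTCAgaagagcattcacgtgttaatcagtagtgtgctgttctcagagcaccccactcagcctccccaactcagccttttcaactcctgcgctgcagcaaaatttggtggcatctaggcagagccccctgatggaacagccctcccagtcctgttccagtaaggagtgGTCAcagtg
Kcnab1, last start, chr3:65187853-65188102, plus strand: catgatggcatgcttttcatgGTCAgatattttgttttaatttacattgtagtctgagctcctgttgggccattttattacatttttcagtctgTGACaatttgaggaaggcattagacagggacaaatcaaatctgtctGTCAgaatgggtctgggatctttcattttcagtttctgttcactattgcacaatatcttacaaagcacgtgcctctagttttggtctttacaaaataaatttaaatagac

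RefSeq start windows of 300 bases (250 before and 50 after the start) were found for 8 of the 10 genes (all but Kcnd1 and Kcnab3), 17 windows in all. A further match in the first Kcnab1 window runs across the start and is not in capitals above. GTCA was present on either strand in 14 of the 17 (82.4%), against 85.2% of the 32851 windows of the same length in the table. In the 50 bases after the start it was present in 1 of the 17 (5.88%), a window of Kcnip3, against 27.2% of all windows. The cyclic AMP response element TGACGTCA, which itself contains TGAC and GTCA, was in none of the 17 and in 1.79% of all windows. A match describes the letters only and does not show that a factor binds there.

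Kcnip4, Kcnip2 and Kcnab1 held all 7 member probe sets whose transgenic and wild-type values did not overlap. Kcnip4 was lower in transgenic testis with all 3 of its probe sets and Kcnip2 with 2 of 3, while Kcnab1 was higher with both of its probe sets. The remaining 22 probe sets, among them all 11 of the Kv4 subunits and both of Kcnip3, had overlapping groups. In bulk tissue, fewer cells of a type and less RNA per cell cannot be told apart. As shares, 5 of 29 probe sets lay lower without overlap, where 4.95% of all probe sets did, and 2 of 29 lay higher without overlap, where 6.35% of all did. Together these are 24.1% of the members and 11.3% of all probe sets, and since the family was chosen on this comparison nothing is read from the excess. The limma fit over all probe sets called 2 member probe sets at an adjusted p under 0.05 (6.90%), 1 of Kcnab1 and 1 of Kcnip4, against 0.444% of all probe sets. The Kcnip4 call ended with any array but wild type replicate 2 left out, and after quantile normalization again or median centring. The Kcnab1 call ended without transgenic replicate 2, transgenic replicate 3 or wild type replicate 3. Without wild type replicate 2, both Kcnab1 probe sets and 2 of Kcnip4 passed.

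**Figure D1:**
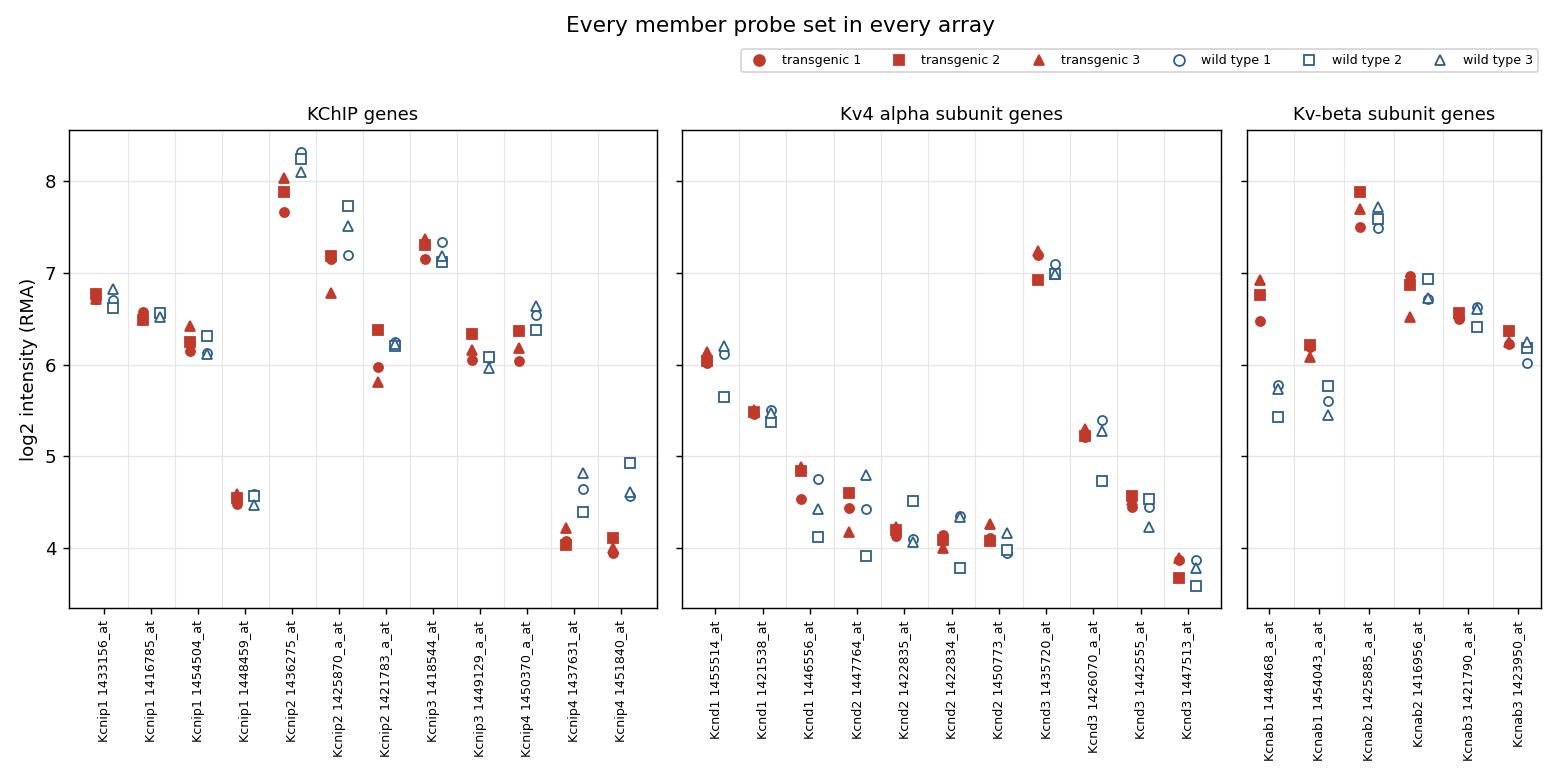
Each point is the log2 RMA intensity (vertical axis) of 1 probe set (horizontal axis, by gene and probe set name) in 1 array, with transgenic arrays as filled red and wild-type arrays as open blue marks. The groups stand apart in the 3 probe sets of Kcnip4, 2 of Kcnip2 and both of Kcnab1, and overlap in the other 22.

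Facts of the arrays bear on all of these values. Median log2 intensities per array were 6.05 to 6.08 in transgenic and 5.99 to 6.08 in wild-type testis. Wild type replicate 2 stood apart on the first principal component over all probe sets, at -42.2 where the other 5 arrays lay between -5.3 and 23.3. It was the single lowest or highest of the 6 arrays in 48.3% of the member probe sets and in 50.1% of all probe sets. The excess of 3' over 5' signal of the Gapdh controls, a log2 measure of RNA integrity, was 0.21, 0.26 and 0.33 in transgenic and 0.16, 0.06 and 0.11 in wild-type testis. The groups did not overlap (exact permutation test, two-sided p = 0.1, the smallest that 3 against 3 can give), and its part in the values below was not tested. The same measure for beta-actin overlapped, at 0.53, 0.47 and 0.49 in transgenic and 0.50, 0.41 and 0.50 in wild-type testis (exact permutation test, two-sided p = 0.7). The 8 spermatid markers, such as Prm1 (14.10 ± 0.03 in transgenic and 14.10 ± 0.02 in wild-type testis, SD, n = 3), each averaged 10.92 or more in both groups. Spermatid markers of the labelled tissue were therefore bright, which says nothing of earlier germ cells.

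Kcnip3, the gene of DREAM itself, overlapped between the groups with both probe sets. With 1418544_at it read 7.15, 7.30 and 7.36 in transgenic testis, against 7.33, 7.11 and 7.18 in wild-type testis, and the wild-type values span nearly the same range as the transgenic ones. With 1449129_a_at it read 6.05, 6.33 and 6.16 in transgenic testis, against 6.07, 6.08 and 5.96 in wild-type testis. Here 2 of the 3 transgenic arrays lay above every wild-type array and the remaining one between them. Averaged over both probe sets in each array, Kcnip3 was 6.72 ± 0.11 in transgenic and 6.62 ± 0.07 in wild-type testis (SD, n = 3). The sources used here do not say whether either probe set can bind transcripts of the transgene, so the genotype labels are not checked by them.

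Kcnip4 encodes the KChIP with a splice form that suppresses fast inactivation of Kv4 channels. Its probe set 1451840_at read 3.95, 4.11 and 4.00 in transgenic testis, against 4.57, 4.93 and 4.61 in wild-type testis. Every transgenic value lay at least 0.46 below every wild-type value, and the difference was -0.68 (SE 0.12), a signal 1.61-fold lower. Probe set 1437631_at read 4.08, 4.04 and 4.22 in transgenic testis, against 4.65, 4.40 and 4.82 in wild-type testis, a difference of -0.51 (SE 0.12). The groups stood 0.18 apart. The brightest of the 3, 1450370_a_at, read 6.04, 6.36 and 6.18 in transgenic testis, against 6.54, 6.37 and 6.64 in wild-type testis, a difference of -0.32 (SE 0.11). There the groups came within 0.01 of each other, between transgenic replicate 2 and wild type replicate 2. Averaged over the 3 probe sets, Kcnip4 was 4.78 ± 0.08 in transgenic and 5.28 ± 0.07 in wild-type testis (SD, n = 3), with no overlap.

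Probe sets 1451840_at and 1437631_at of Kcnip4 lay among the dimmest 40% of all probe sets (mean log2 under 5.56), so the ratio of its transcripts is not known. All 3 kept their sign under every one of the 12 alternatives run for each. Where groups do not overlap, leaving out an array cannot change the sign, so nothing is read from those alternatives. Of 2366 genes with exactly 3 single-gene probe sets, 8 (0.338%) had all 3 lower in transgenic testis without overlap, Kcnip4 among them. Since the family was chosen partly for Kcnip4 in this comparison, nothing is read from that share.

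Kcnip2 encodes the KChIP best known from the transient outward current of heart muscle. Its probe set 1436275_at read 7.66, 7.88 and 8.03 in transgenic testis, against 8.31, 8.24 and 8.09 in wild-type testis, a difference of -0.36 (SE 0.12). Transgenic replicate 3 came within 0.06 of wild type replicate 3. With 1425870_a_at it read 7.15, 7.18 and 6.78 in transgenic testis, against 7.19, 7.72 and 7.51 in wild-type testis, a difference of -0.44 (SE 0.16). The gap between the groups was 0.01 there and closed when each array was centred on its median. With 1421783_a_at it read 5.97, 6.37 and 5.81 in transgenic testis, against 6.24, 6.20 and 6.22 in wild-type testis. That last difference was -0.17 (SE 0.14), and transgenic replicate 2 was the highest of the 6 arrays. Averaged over its probe sets, Kcnip2 was 6.98 ± 0.14 in transgenic and 7.30 ± 0.07 in wild-type testis (SD, n = 3). The transgenic values of that average lay between 6.87 and 7.14 and the wild-type values between 7.25 and 7.39. No Kcnip2 probe set was past the threshold of the fit over all probe sets.

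Kcnip1, the remaining KChIP gene and a Kv4 partner in neurons, differed little. Its 4 probe sets gave differences from -0.03 to 0.09, and all 4 had overlapping groups. Averaged over them it read 5.98, 6.01 and 6.06 in transgenic testis, against 5.99, 6.02 and 5.98 in wild-type testis. The 95% intervals of the 4 differences ran from -0.22 at the lowest to 0.33 at the highest.

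**Figure D2:**
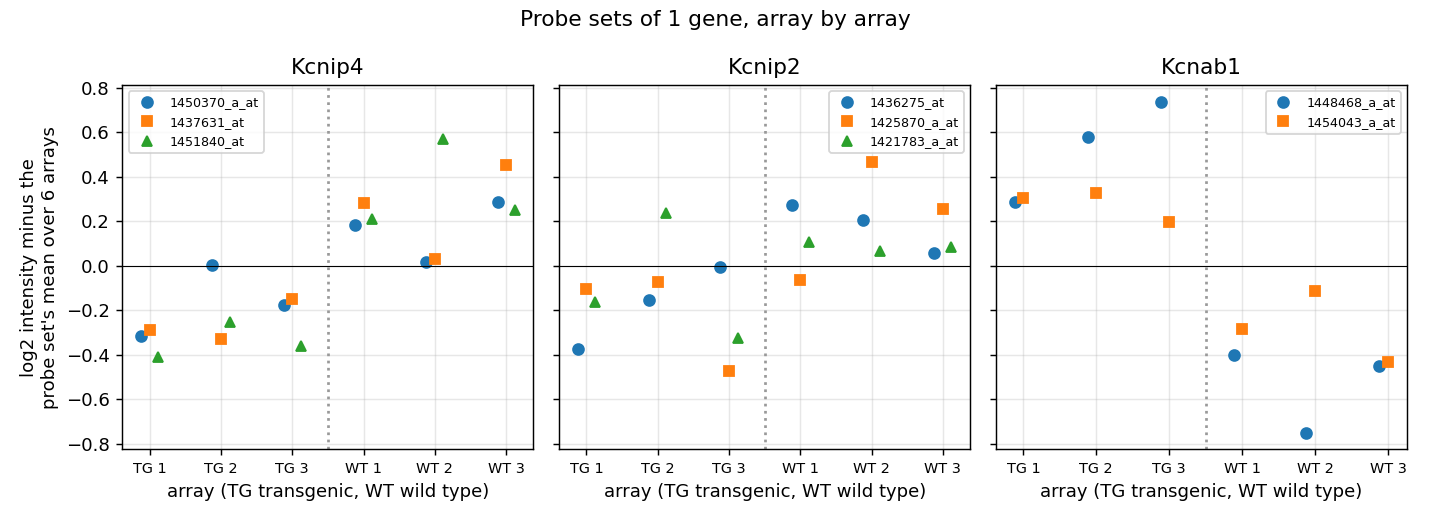
Each panel shows 1 gene, with the log2 intensity of each probe set minus its own mean over the 6 arrays (vertical axis) in each array (horizontal axis, transgenic on the left of the dotted line). All Kcnip4 marks of the transgenic arrays lie at or near 0 or below and those of wild type above 0, Kcnab1 shows the opposite, and 1 Kcnip2 probe set (1421783_a_at) mixes the groups.

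The Kv4 pore subunits, to which the KChIPs bind, overlapped between the groups with all 11 probe sets. Their differences ran from -0.08 to 0.32 with a median of 0.08, where the median over all probe sets was 0.02. Of the 11, 9 lay among the dimmest 40% of all probe sets.

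Kcnd3, the Kv4 subunit prominent in heart, had the brightest of those probe sets, 1435720_at, at 7.19, 6.92 and 7.24 in transgenic testis, against 7.09, 6.98 and 6.98 in wild-type testis. The difference was 0.10 (SE 0.11), and the other 3 Kcnd3 probe sets gave 0.07 to 0.11. Kcnd1, another of the pore subunits, read 6.02, 6.04 and 6.14 in transgenic testis with 1455514_at, against 6.11, 5.65 and 6.20 in wild-type testis. The low value is that of wild type replicate 2, and the difference was 0.08 with that array and -0.09 without it. Its dimmest probe set, 1446556_at, gave the largest difference of the 11, 0.32 (SE 0.16), with 4.54, 4.84 and 4.88 in transgenic testis and 4.75, 4.12 and 4.43 in wild-type testis. Without wild type replicate 2 that difference was 0.16.

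Kcnd2, the main Kv4 subunit of neuronal dendrites, had all 4 probe sets among the dimmest 40%, with differences from -0.08 to 0.12. Its average over the 4 was 4.21 ± 0.04 in transgenic and 4.20 ± 0.15 in wild-type testis (SD, n = 3). The wild-type arrays spread more than the transgenic ones in 10 of the 11 Kv4 probe sets, with median SDs of 0.08 in transgenic and 0.25 in wild-type testis. In several of these, wild type replicate 2 was the array that lay apart. In wild-type testis 1422834_at read 4.35, 3.79 and 4.34 and Kcnd3 probe set 1426070_a_at read 5.40, 4.73 and 5.28. It did not lie apart in 1450773_at, at 3.95, 3.98 and 4.17. Over all probe sets the wild-type SD was the larger in 60.4%, with median SDs of 0.11 in transgenic and 0.13 in wild-type testis.

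**Figure D3:**
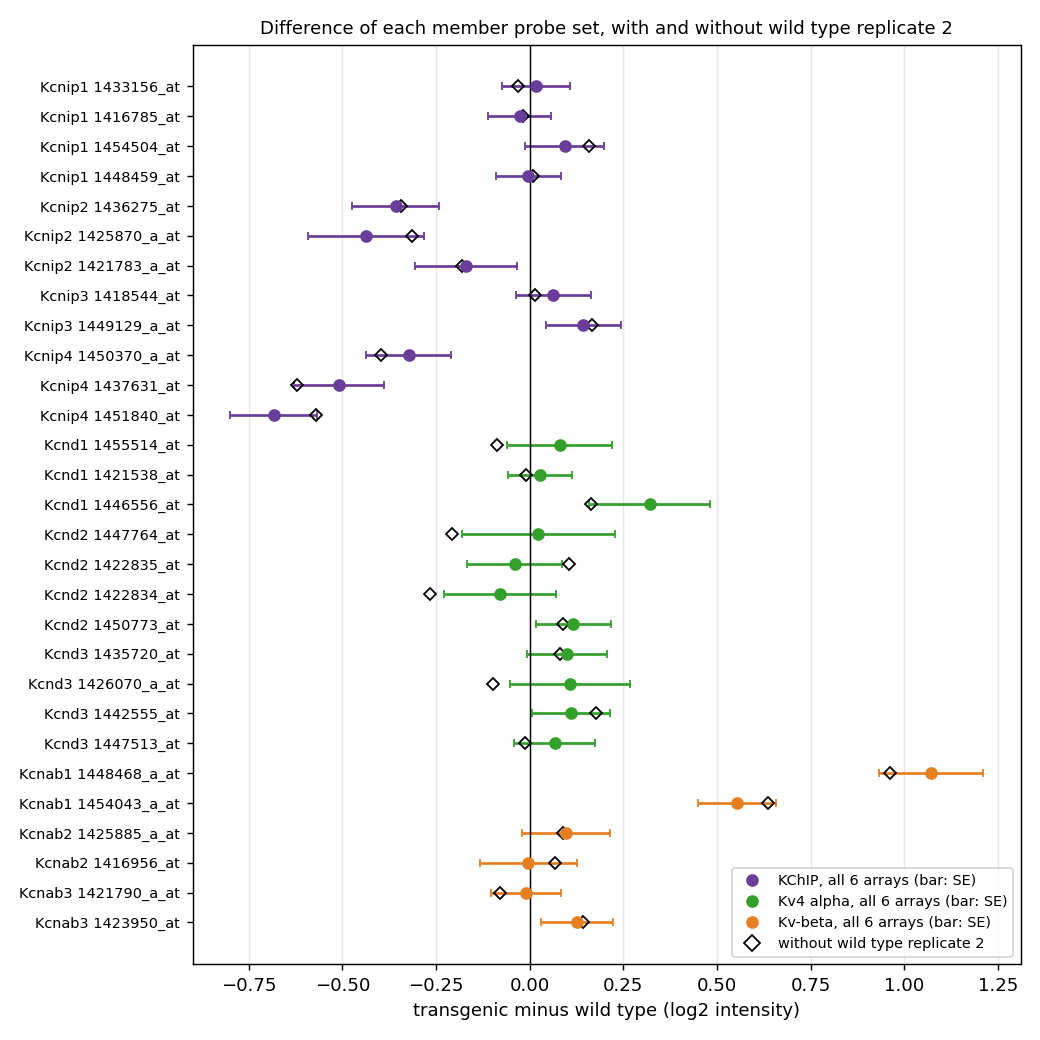
Points are the transgenic minus wild-type differences of the 29 probe sets (horizontal axis, log2 intensity) with bars of 1 SE from limma, coloured by KChIP, Kv4 alpha and Kv-beta genes, and open diamonds are the same without wild type replicate 2. Kcnip4 and Kcnab1 keep their side of 0 in both, as probe sets whose groups do not overlap must. Of the 11 Kv4 probe sets, whose groups overlap, 6 change side.

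Kcnab1 encodes a Kv-beta subunit whose N-terminal end closes Kv1 channels quickly, and it showed the largest difference of the 10 genes. Its probe set 1448468_a_at read 6.47, 6.76 and 6.92 in transgenic testis, against 5.78, 5.43 and 5.73 in wild-type testis. The lowest transgenic value stood 0.69 above the highest wild-type value, and the difference was 1.07 (SE 0.14), a signal 2.10-fold higher. Of all probe sets, 0.0355% had a larger increase, a share from which nothing is read because the family was chosen partly for Kcnab1. The other probe set, 1454043_a_at, read 6.19, 6.21 and 6.08 in transgenic testis, against 5.60, 5.77 and 5.45 in wild-type testis. Again the groups stood apart, by 0.31, with a difference of 0.55 (SE 0.11), a signal 1.47-fold higher. Averaged over both, Kcnab1 was 6.44 ± 0.09 in transgenic and 5.63 ± 0.06 in wild-type testis (SD, n = 3).

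Within the groups the probe sets of Kcnab1 did not follow each other: transgenic replicate 3 was the highest of its group with 1448468_a_at and the lowest with 1454043_a_at. Wild type replicate 2 was the lowest of its group with the first and the highest with the second. Of 4695 genes with exactly 2 single-gene probe sets, 53 (1.13%) had both higher in transgenic testis without overlap, Kcnab1 among them. For the same reason of choice, that share is a description only. Both Kcnab1 probe sets have names ending in _a_at, a class that can match several transcripts of 1 gene, and the files do not say which of its splice forms each reads.

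The other Kv-beta genes overlapped between the groups. Kcnab2, whose product lacks the inactivating N-terminal end and helps place Kv1 channels along axons, read 7.50, 7.88 and 7.69 in transgenic testis with its brighter probe set, against 7.49, 7.58 and 7.71 in wild-type testis. The difference was 0.10 (SE 0.12), and its other probe set gave -0.003 (SE 0.13). Kcnab3, the remaining Kv-beta gene, averaged 6.41 ± 0.05 in transgenic and 6.35 ± 0.07 in wild-type testis over its 2 probe sets (SD, n = 3), which gave differences of -0.01 and 0.13.

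**Figure D4:**
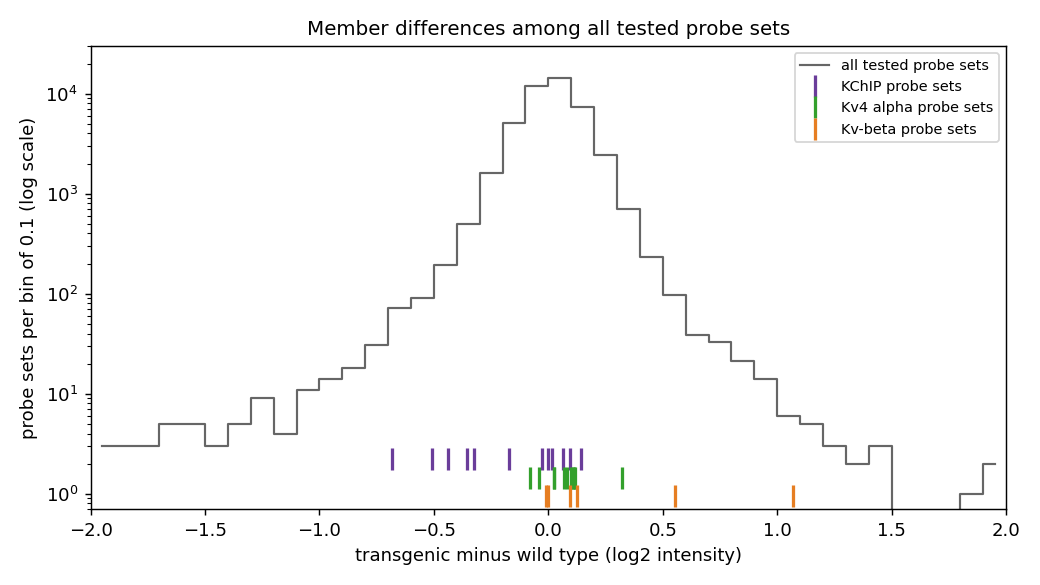
The grey line counts all tested probe sets by their transgenic minus wild-type difference (horizontal axis, log2 intensity from -2 to 2) in bins of 0.1 (vertical axis, log scale), and coloured ticks mark the 29 member probe sets. Most ticks lie near the centre, with Kcnab1 at 0.55 and 1.07 on the right and Kcnip4 and Kcnip2 on the left down to -0.68.

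Genes of other Kv channel subunits and of DREAM partners, which are no members of the family, were read from the same fit with the brightest probe set of each. Their lists were drawn up with earlier results of these data known. Of the 50 listed, 38 had a probe set of their own in the annotation, and 0 of these passed the threshold (limma, Benjamini-Hochberg). Over all genes 0.616% passed, and at so small a share 0 of 38 cannot show that these genes were unchanged. An unadjusted p under 0.05 was reached by 3 of the 38, against 7.48% of all genes. Of the 38, 27 differences lay above 0 and 11 below, with a median of 0.05. The median over all probe sets also lay above 0, at 0.02, so nothing is read from these signs.

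Among 6 further Kv4 complex subunits, all 6 differences lay above 0, from 0.02 to 0.29, and 0 passed the threshold. Kcne3, a single-pass beta subunit of potassium channels, read 10.12, 10.09 and 10.13 in transgenic testis, against 9.63, 9.89 and 9.96 in wild-type testis. Its groups did not overlap, but the difference of 0.29 (SE 0.10) did not pass (limma adjusted p = 0.6). Dpp6, a transmembrane partner that speeds Kv4 gating, differed by 0.13 (limma adjusted p = 0.946).

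Among 7 Kv1 alpha subunits, the partners of Kv-beta proteins, Kcna5 read 4.74, 4.54 and 4.58 in transgenic testis, against 4.80, 4.77 and 5.12 in wild-type testis. That difference was -0.28 (SE 0.12, limma adjusted p = 0.72), and Kcna7 differed by 0.22 (limma adjusted p = 0.846). Of 21 other Kv alpha subunits, Kcnc1, a channel of fast-firing neurons, differed by 0.27 and the silent subunit gene Kcnf1 by -0.20 (limma adjusted p = 0.72 and 0.789). Of 4 measured genes listed as partners of DREAM (presenilin, CREM, CREB and CREB-binding protein genes), Psen2, a presenilin, differed by 0.18 and Crem, a transcription factor of spermatids, by -0.07 (limma adjusted p = 0.946 and 0.965).

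The genes most like a member over the 6 arrays were taken from probe sets at or above the median brightness. These numbered 18901 for Kcnip3 and 18902 for Kcnip4 and Kcnab1. With so many candidates and only 6 arrays, high correlations can arise by selection alone, so nothing is read from their size. They are a description over arrays that share the genotype step. For Kcnip3 probe set 1418544_at the most similar genes were Ankzf1, Hcn3 and Elk4 (Pearson r = 0.992, 0.990 and 0.990). For the brightest Kcnip4 probe set they were Kcnf1, Spaca6 and Enkur (r = 0.995, 0.984 and 0.984), and for 1451840_at they were Tedc1, Flywch2 and Mboat2 (r = 1.00 after rounding, 0.997 and 0.996). For Kcnab1 probe set 1448468_a_at they were Gas5, Prpf19 and Cd99l2 (r = 0.986, 0.985 and 0.983). All of the genes named for Kcnab1, and all but Kcnf1 of those named for Kcnip4, had groups that did not overlap, in the direction of the member. Of all probe sets, 11.3% had groups that did not overlap. Genes picked for following a member whose groups stand apart tend to stand apart too, so nothing is read from this count.

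The marker lists of 5 cell types had summed levels that differed between the groups without overlap, although only Hsd3b1 among their genes passed the threshold. How often sums of other gene lists do so was not computed, so nothing is read from that count. The summed linear intensity of 6 measured spermatocyte markers was 3614 to 3790 in transgenic and 4199 to 4436 in wild-type testis, with all 6 differences below 0. That of 5 Leydig cell markers was 5595 to 6400 in transgenic and 4605 to 5421 in wild-type testis, with 4 of 5 above 0 and a median difference of 0.03. Of these, Hsd3b1 differed by 1.48 (limma adjusted p = 0.00109) and Hsd17b3 by 0.91 (limma adjusted p = 0.146), while Star, Cyp17a1 and Cyp11a1 differed by 0.01, 0.03 and -0.06. Macrophage markers summed to 1013 to 1088 in transgenic and 849.4 to 968.6 in wild-type testis, with 5 of 6 above 0. Adipose markers summed to 476.6 to 552.6 in transgenic and 434.8 to 459.3 in wild-type testis, with 4 of 4 above 0. Nerve markers summed to 403.2 to 452.5 in transgenic and 385.8 to 399.1 in wild-type testis, with 4 of 7 above 0, a median of 0.03 and overlapping groups for each of the 7 genes. The sums of the Sertoli, peritubular myoid, spermatogonial, spermatid and epididymal lists overlapped. Gene by gene, 2 Leydig, 2 macrophage and 2 adipose genes were higher without overlap and 2 spermatocyte genes were lower. Over all probe sets, 6.35% were higher and 4.95% lower without overlap. In each of the Sertoli, spermatogonial and spermatid lists 1 gene was higher without overlap, and of 3 epididymal genes 1 was lower. That epididymal gene, Rnase10, differed by -0.60 (SE 0.11, limma adjusted p = 0.0647). The endothelial sum overlapped too, at 355.7 to 371.4 in transgenic and 335.2 to 362.8 in wild-type testis, but 4 of its 6 genes had groups that did not, 3 higher and 1 lower. Its median difference was 0.22 and that of Tek 0.47 (limma adjusted p = 0.237). Among nerve markers, Snap25 read 3.36 ± 0.06 in transgenic and 3.43 ± 0.08 in wild-type testis (SD, n = 3), near the lowest values on these arrays. The part of these cell types in the differences of Kcnip4, Kcnip2 and Kcnab1 was not tested.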

How the data were processed

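Testis RNA of 3 transgenic and 3 wild-type samples was measured on 1 array each. The authors deposited log2 intensities per probe set to 2 decimals, and the submitters' processing notes name RMA and the affy package, with versions not given in the sources used here. With 3 arrays in each group, their number sets the precision.

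Of 45101 probe sets, 64 Affymetrix controls were left out. Names came from the platform annotation, brought up to date through a RefSeq table of GRCm38.p6. All 45037 others were fitted with limma 3.58.1 in R 4.3.3 as transgenic minus wild type, with no filter, Benjamini-Hochberg adjustment over all and a threshold of 0.05. The fit was tested on simulated data. The members and lists were chosen with earlier results of these data known. The genes named were all members, the 2 of smallest p in a partner list with no call, and the 3 most correlated genes for Kcnip3, Kcnip4 and Kcnab1. Snap25, Prm1, Tek, Rnase10 and the Leydig genes were named after their values were seen. Alternatives were other scaling, a filter on dim probe sets, other variance priors, weights per array, a replicate block, each array left out, fewer probe set classes, a looser threshold and averaged probe sets. No array was a copy of another. Promoter windows are RefSeq's.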

Additional observations from a re-analysis of the deposited data

How the results depend on the processing

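The 2 member probe sets past the threshold were 1 under quantile normalization again, 1 after median centring, 1 without the lowest 40% of probe sets, 1 with the replicate number as a block and 1 without probe sets named _x_at, _s_at or _a_at. Kcnab1 was the gene that passed in the first 4 of these and Kcnip4 in the last, which leaves out both Kcnab1 probe sets by construction, as the filter on dim probe sets leaves out Kcnip4 probe set 1451840_at. Leaving out 1 array in turn gave 0 to 4: 0 without transgenic replicate 2 or 3 or wild type replicate 3, 1 (Kcnab1) without transgenic replicate 1 or wild type replicate 1, and 4 (2 of Kcnab1 and 2 of Kcnip4) without wild type replicate 2, where 429 of all probe sets passed. At an adjusted p under 0.1, 3 passed. With array weights 7 member probe sets and 5 partner genes passed, but 4160 of all probe sets did too, the weights stopped short of convergence, and wild type replicate 3 had a weight of 19.1 against 0.237 for wild type replicate 2. In the other alternatives 0 partner genes passed. The 7 probe sets without overlap kept their sign in all alternatives run for each. With an array left out this was fixed in advance, since their groups do not overlap. Kcnab1 probe set 1448468_a_at lay between 0.96 and 1.19 and Kcnip4 probe set 1451840_at between -0.75 and -0.57. Same-numbered samples did not deviate together (correlations of -0.32, -0.07 and -0.01), so the numbers are not taken to pair the samples, and the replicate block is given only here. The causes of these shifts were not tested. For Kcnd2, most Kcnd1 and Kcnd3 probe sets and 2 of 3 Kcnip4 probe sets, low signal limits what the arrays can show.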
